A study of Paeonia ostii with 18 samples.

Results

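The probes described here are the 33 gibberellin (GA) response probes of a tree peony (Paeonia ostii) microarray that lie outside the core GA signalling pathway. They were taken from the study's list of 51 GA-related probes, which its authors had chosen by Gene Ontology term. The 18 probes marked S/R there were left out. Those 18 are called core signalling probes below, although GASA4, GAMMA-TIP and ABI5 are among them. The array held 14957 probes in all. The symbols are those of the closest Arabidopsis genes, so every role given below is known from Arabidopsis unless another plant is named, and 2 symbols, SNRK2.3 and PKL, were each carried by 2 probes.

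Mixed flower buds of 4-year-old potted 'Feng Dan Bai' plants were compared after 0, 6, 12, 15, 18 and 24 d in a refrigerated room at 0 to 4 °C, with 3 replicates of 3 plants and 3 buds per plant at each time. From bud break in a greenhouse, the study regarded buds at 0, 6, 12 and 15 d as endo-dormant. It placed 12 and 15 d midway towards release. Buds at 18 d were taken to be at release and those at 24 d in eco-dormancy. The labels give no factor other than chilling time that differed between the groups. One-colour arrays were used, 18 in all with 1 per replicate. Each replicate was a pool of whole buds, in which fewer cells of a type and less RNA per cell cannot be told apart.

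Gibberellins are diterpenoid hormones that promote germination, stem elongation, bud outgrowth and flowering. The hormone binds the soluble receptor GID1, the complex leads DELLA proteins to degradation, and genes that DELLA proteins hold back are then transcribed. The 33 probes stand for what lies downstream of, or beside, this module. They comprise small secreted peptides of the GASA family, starch-degrading alpha-amylases, MYB factors, regulators of flowering and chromatin, calcium-dependent and abscisic acid-activated kinases, and genes of stress, ethylene and cell wall responses. In woody plants the cold of winter ends endo-dormancy, and applied GA promotes its release in tree peony.

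Signals were strong. Between 82.2 and 96.5% of probes were well above background on each array and no spot was saturated. Of the 33 probes, 22 were well above background on all 18 arrays, 10 on some of them and 1, XERICO, on none. Hybridizations were spread over 3 slides. The 0 d and 6 d arrays were all on slide 1, together with 12 d replicates 1 and 2. On slide 2 were 12 d replicate 3, the 15 d and 18 d arrays and 24 d replicate 1, and the other 24 d arrays were on slide 3. No array of 0 d therefore shared a slide with one of 15, 18 or 24 d. Among the arrays 3 most often held the highest or the lowest of the 18 values of a probe. Replicate 1 of 18 d was not far below them, with the highest for 9.69% and the lowest for 5.92% of probes. Replicate 3 of 24 d, which had the most flagged probes (233), held the highest for 10.4% and the lowest for 7.65% of probes, and for 5 and 4 of the 33. Replicate 2 of 12 d did so for 12.6 and 15.6% of probes, and for 4 and 3 of the 33, and replicate 3 of 0 d for 9.49 and 15.0% of probes, and for 5 and 4 of the 33. Without replicate 3 of 24 d, limma called 2 of the 33 in the F, 7 at 18 d and 1 at 24 d against 0 d, and without replicate 3 of 0 d it called 0, 3 and 2. Without replicate 2 of 12 d the counts were 3, 6 and 4, where all 18 arrays gave 3, 4 and 4. The shares of all probes called in the fits that left out an array are not given here. The summed log2 signal of 7 green-tissue probes, picked by description from the study's own lists of changed genes, was 15.95 to 16.04 at 0 d, 15.02 to 15.22 at 6 d, 15.05 to 15.41 at 12 d, 14.90 to 15.46 at 15 d, 15.27 to 15.78 at 18 d and 15.37 to 15.84 at 24 d. All 7 were above background, and of them 0 rose and 3 fell at 18 d against 0 d, where 8.78% of all probes rose and 7.00% fell. As the 7 probes came from lists of changed genes, their share cannot be weighed against that of all probes. Their part in the differences from 0 d given below was not tested. Of the flowering and floral identity genes looked for, AGL20 alone was named among the 3753 probes with a description, and the others were not analysed here. As AGL20 is itself among the 33, it was not used as a marker of tissue.

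The signal of most of the 33 probes did not pass a test of change. In limma, with p-values adjusted by the Benjamini-Hochberg method across the whole array and 0.05 as the threshold, the F over the 6 chilling times called 3 of 33 probes (9.09%), AGL20, CDPK1 and SNRK2.3 CUST_11019, against 5.72% of all probes. Each call was lost when certain single arrays were left out, and the count ran between 0 (0 d replicate 1 or 3 or 15 d replicate 2 left out) and 5 (12 d replicate 1 left out). It was 1 without 0 d replicate 2, 6 d replicate 3, 15 d replicate 1 or 3, 24 d replicate 2 or any array of 18 d. How the share of all probes moved with these arrays is not given here. The methods' ANOVA, at an unadjusted p under 0.05, called 9 of 33, against 26.8% of all probes. At 18 d against 0 d, 4 of 33 passed (12.1%), 2 higher and 2 lower, against 15.8% of all probes, of which 8.78% were higher and 7.00% lower. Higher probes made up 55.6% of these calls over all probes, and 39.8% with 75th percentile scaling. Under that scaling 5 of the 33 passed at 18 d. Of these 1 was higher, AT1G70000, against 5.63% of all probes, and 4 were lower, CDPK1, ERD14, SNRK2.3 CUST_11019 and BT4, against 8.53%, and AS1 was lost. At 24 d against 0 d, 4 passed, 3 higher and 1 lower, against 7.74% of all probes, of which 4.51% were higher and 3.23% lower. At 12 d against 0 d, 1 passed, lower, against 3.13% of all probes (1.52% lower), and the calls over all probes were 51.5% higher, or 62.6% with 75th percentile scaling. The comparisons with 0 d share its 3 arrays.

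No GA-response probe passed in 4 comparisons. At 6 d against 0 d limma called 0 (0.0802% of all probes), with 4 at an unadjusted p under 0.05, where the methods' Tukey test had 1. At 15 d against 0 d it called 0 (6.86% of all probes), with 8 unadjusted and 2 by the Tukey test. Between neighbouring late stages, 18 d against 15 d gave 0 (0.0201% of all probes), with 5 unadjusted and 1 by the Tukey test, and 24 d against 18 d gave 0 (0% of all probes), with 3 unadjusted and 0 by the Tukey test. These unadjusted limma counts stand beside 15.6, 23.6, 8.18 and 12.0% of all probes, and the Tukey counts beside 3.73, 9.01, 1.68 and 2.77%. At 12 d against 0 d the Tukey test called 2 of the 33 and 7.14% of all probes. With 18 d and 24 d together against 6, 12 and 15 d, 1 of 33 passed, CDPK1, against 1.73% of all probes, of whose calls 46.3% were higher, or 12.0% with 75th percentile scaling. Among the 18 core signalling probes, limma called 3 in the F. Against 0 d it called 0 of them after 6 d, 3 after 12 d, 2 after 15 d, 6 after 18 d and 2 after 24 d.

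**Figure D1:**
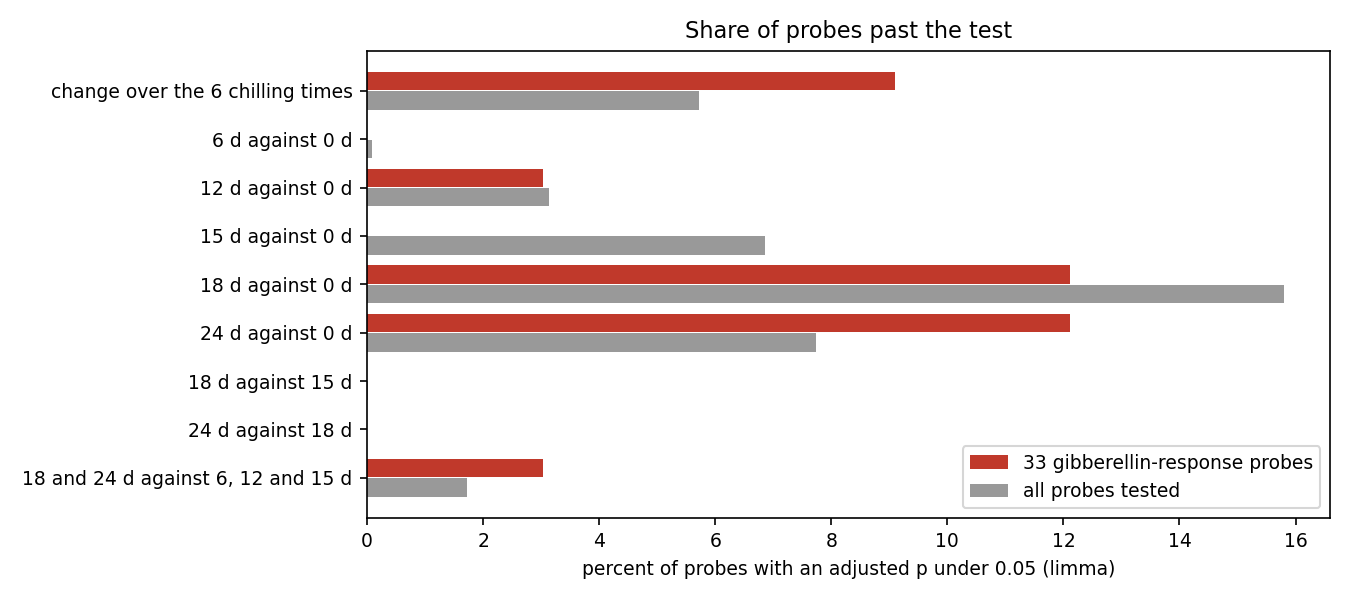
Percent of probes with an adjusted p under 0.05 (limma, x axis) in each comparison, for the 33 GA-response probes (red) and all probes tested (grey). The share of the 33 lay below that of all probes at 18 d against 0 d (12.1 and 15.8%) and above it at 24 d against 0 d (12.1 and 7.74%).

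The size of the differences between times, set beside that of the whole array, varied with the comparison. The median size of the log2 fold change against 0 d was 0.25, 0.32, 0.34, 0.47 and 0.49 for the 33 probes at 6, 12, 15, 18 and 24 d, and 0.27, 0.32, 0.32, 0.39 and 0.34 for all probes. At 18 d against 15 d it was 0.24 for the 33 and 0.21 for all, and at 24 d against 18 d 0.18 and 0.23. The median signed change at 18 d against 0 d was -0.02 for the 33 and 0.05 for all. The median spread within a time was an SD of 0.47 on the log2 scale for the 33 probes and 0.33 for all. The ratio of the range of time means to this SD had a median of 1.92 for the 33 and 2.05 for all. The highest mean fell at 0 d for 11 of the 33, at 6 d for 3, at 12 d for 1, at 15 d for 6, at 18 d for 4 and at 24 d for 8. Over all probes these shares were 23.7, 9.56, 14.8, 11.3, 20.9 and 19.6%.

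**Figure D2:**
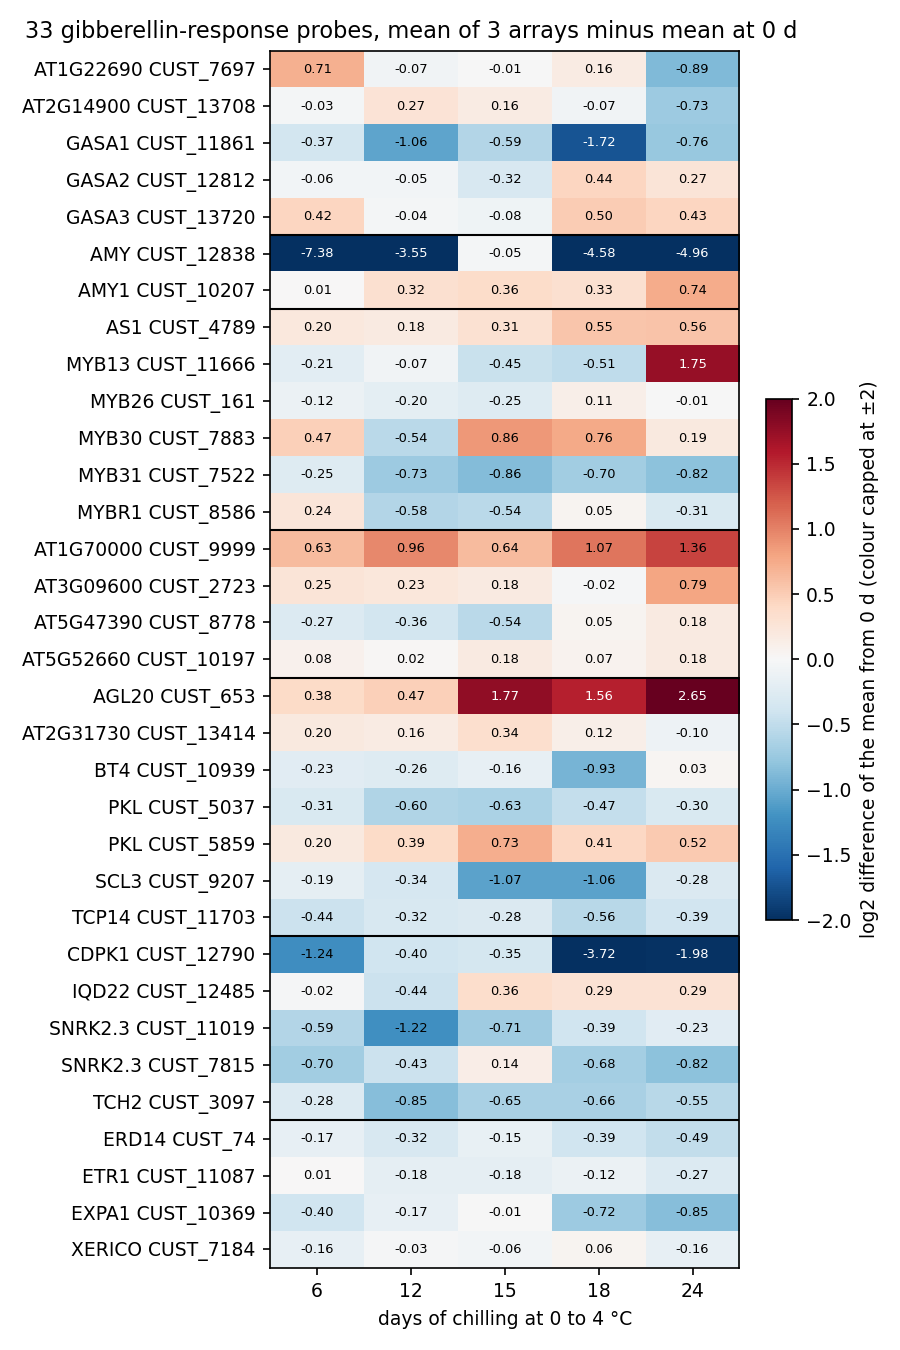
Mean log2 signal of each of the 33 probes at 6, 12, 15, 18 and 24 d minus its mean at 0 d (3 arrays per time), grouped by role, with colours capped at 2 in either direction. AMY reached -7.38 at 6 d and CDPK1 -3.72 at 18 d, while AGL20 reached 2.65 at 24 d.

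Among the kinases and calcium sensors, CDPK1 (probe CUST_12790), a calcium-dependent protein kinase, fell at the release of endo-dormancy. On the log2 scale the signal was 8.07, 8.33 and 8.14 at 0 d, 8.22, 5.41 and 7.19 at 6 d, 6.13, 8.83 and 8.40 at 12 d, 7.77, 7.78 and 7.93 at 15 d, 3.48, 4.90 and 4.98 at 18 d and 4.89, 7.06 and 6.66 at 24 d. All 3 arrays of 18 d were not well above background, as was replicate 2 of 6 d, and at 18 d the probe lay below every array of 0 d and of 15 d. The signal at 18 d was 11.0-fold lower than at 0 d after a floor was applied. Each 18 d array was set no lower than the dimmest probe well above background on it. This fold depends on the background correction and is not a lower bound. Without the floor the log2 fold change was -3.72 (SE 0.77, adjusted p = 0.00794 by limma). This call held whichever single array was left out (adjusted p up to 0.0379), and with slide as a fixed block the estimate was -4.64 (SE 1.30) with an adjusted p of 0.121. With a normexp background correction in place of the scanner's it was -2.11 (adjusted p = 0.00605).

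CDPK1 was lower at 18 d than at 15 d as well, on the same slide. With the same floor the signal was 8.61-fold lower at 18 d than at 15 d, and without it the log2 fold change was -3.37. In the fit to all arrays the adjusted p was 0.170, and in a fit to the 15 d and 18 d arrays alone, which share slide 2, it was 0.0407 by limma. The 24 d mean of CDPK1 lay between these levels, with a log2 fold change of -1.98 against 0 d (SE 0.77, adjusted p = 0.124), and all 3 arrays were below those of 0 d. On slide 2 the single 24 d array, at 4.89, lay within the range of the 18 d arrays, 3.48 to 4.98. The other 24 d arrays, on slide 3, lay higher. The combined 18 d and 24 d arrays were lower than those of 6, 12 and 15 d (log2 fold change -2.19, SE 0.50, adjusted p = 0.0435). That call was lost without any one of 15 arrays, all but 0 d replicate 3, 6 d replicate 2 and 12 d replicate 1. The F call was lost without any one of 13, all but 6 d and 12 d replicates 1 and 2 and 24 d replicate 1.

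SNRK2.3 CUST_11019, named after an abscisic acid-activated kinase, was lowest in the middle of chilling. The replicates had log2 signals of 7.14, 7.05 and 7.01 at 0 d, 6.67, 6.26 and 6.50 at 6 d, 6.14, 5.28 and 6.12 at 12 d, 6.60, 6.33 and 6.15 at 15 d, 6.76, 6.62 and 6.65 at 18 d and 6.74, 6.72 and 7.07 at 24 d. Every array of 6, 12, 15 and 18 d lay below the 3 arrays of 0 d, and only those of 24 d overlapped them. At 12 d it was 2.33-fold lower than at 0 d (log2 fold change -1.22, SE 0.21, adjusted p = 0.0154 by limma). The call held whichever array was left out (adjusted p up to 0.0499). At 15 d and 18 d against 0 d it did not pass, but did with 75th percentile scaling, at -0.73 and -0.81 (adjusted p = 0.0418 and 0.0153). The 12 d estimate was -0.82 under that scaling and -0.54 with the normexp background, and passed with both (adjusted p = 0.042 and 0.0152). Without replicate 2 of 12 d, which was not well above background, the estimate was -0.94. With slide as a fixed block it was -1.36 (adjusted p = 0.019), and within slide 1 alone the same -1.36 had an adjusted p of 0.150, with 2 arrays of 12 d left. Its F call was lost without any one array of 0 d, replicate 2 of 15 d or replicate 2 of 18 d, with an adjusted p of 0.0298 over all arrays, 0.0726 with 75th percentile scaling and 0.101 with slide as a fixed block.

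The second SNRK2.3 probe, CUST_7815, had no such course (adjusted p of the F 0.800). It varied widely within a time, with 5.39, 8.26 and 4.66 at 12 d. At 18 d against 0 d the probes changed by -0.39 (CUST_11019) and -0.68 (CUST_7815). The difference between them was 0.29. An exact two-sided permutation test over arrays gave p = 0.5, but 3 against 3 arrays cannot go below 0.1, so this test could not reach 0.05 for any size of difference. Whether both probes read 1 gene or copies of it is not given in the sources used here.

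The remaining calcium-related probes were TCH2, a calmodulin-like protein induced by touch, and IQD22, a calmodulin-binding protein. TCH2 was at 8.69, 9.40 and 9.34 at 0 d and at 8.46, 8.28 and 8.14 at 12 d, where no array overlapped, with a log2 fold change of -0.85 at 12 d (SE 0.25, adjusted p = 0.07 by limma). All 5 kinase and calcium probes had a negative estimate at 6 d and at 12 d against 0 d, where 53.0 and 51.2% of all probes had a positive one. Of these estimates 0 and 1 passed the test, with a group median of -0.59 and -0.44, against medians of 0.03 and 0.02 over all probes. The estimate of IQD22 at 6 d was only -0.02. Within slide 1 alone, SNRK2.3 CUST_7815 was at 0.29 at 12 d against 0 d, and the others stayed negative. Some spots were not well above background, for IQD22 at 0 d and for CDPK1 and CUST_7815 at 6 d. At 12 d this held for both SNRK2.3 probes and IQD22. With 75th percentile scaling, IQD22 turned positive at both times (0.09 and 0.05).

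**Figure D3:**
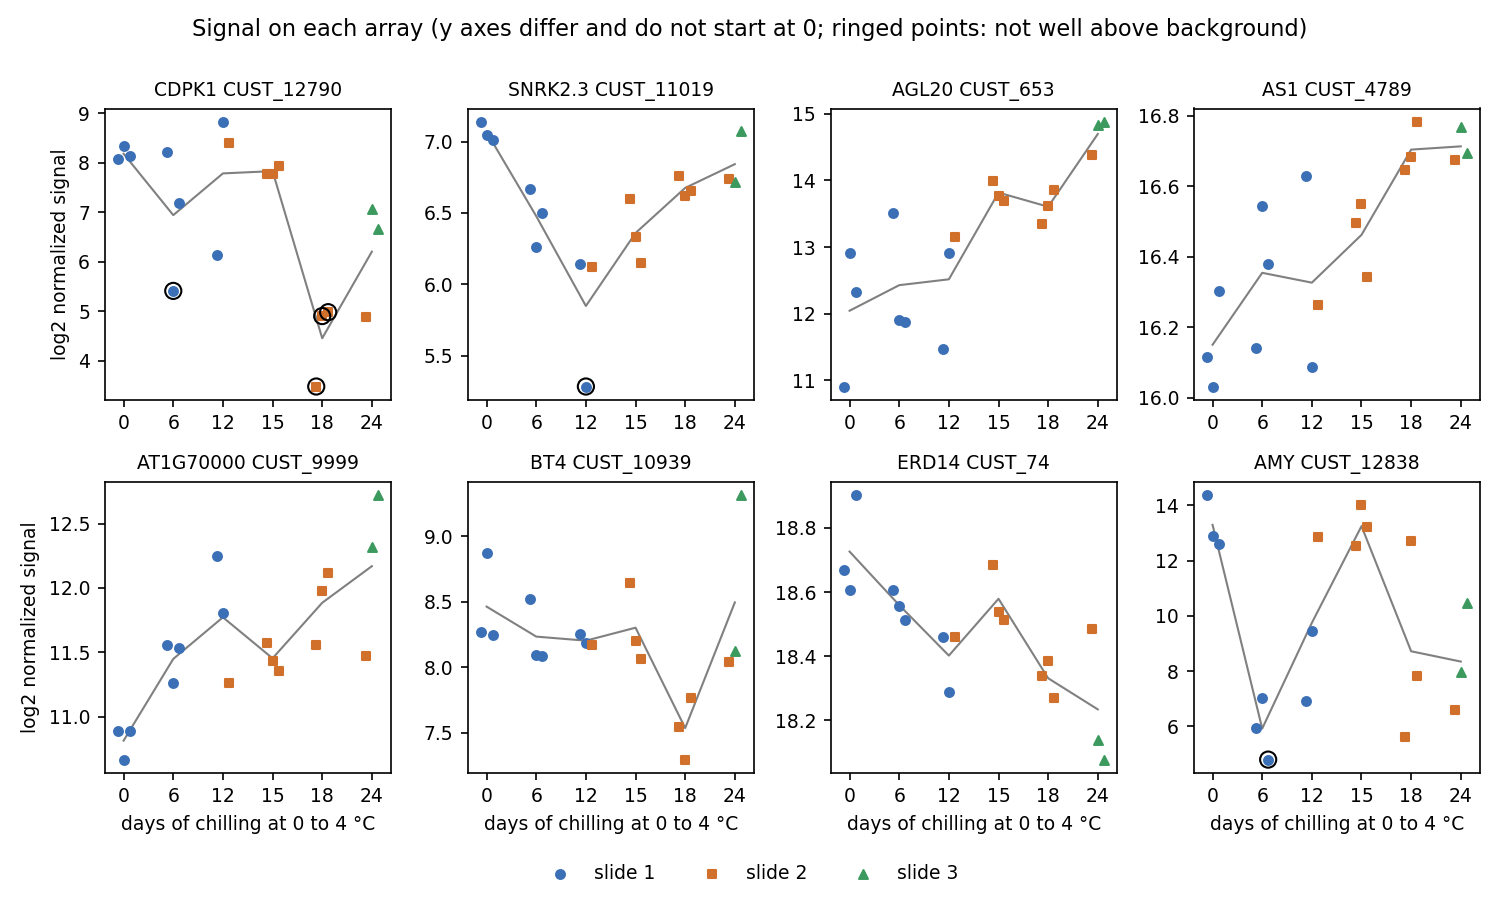
Log2 normalized signal (y axes differ) of 8 probes on each of the 18 arrays against days of chilling, with the slide shown by colour and marker, the mean of each time by the line and spots not well above background ringed. The 3 arrays of CDPK1 at 18 d are ringed and lie below those of 0 d and 15 d, and the arrays of AGL20 at 24 d lie above all others.

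The transcriptional regulators held the largest rise among the called probes, that of AGL20 (CUST_653). AGL20, also called SOC1, is a MADS-box factor that integrates flowering signals, GA among them. The log2 signal of AGL20 was 10.91, 12.90 and 12.32 at 0 d, 13.51, 11.90 and 11.87 at 6 d, 11.48, 12.92 and 13.16 at 12 d, 13.99, 13.77 and 13.69 at 15 d, 13.34, 13.62 and 13.86 at 18 d and 14.38, 14.83 and 14.88 at 24 d. The 3 arrays of 24 d were the 3 highest of all 18, and all arrays of 15 d and 18 d lay above those of 0 d. At 24 d AGL20 was 6.28-fold higher than at 0 d (log2 fold change 2.65, SE 0.53, adjusted p = 0.0134 by limma). The estimates at 15 d and 18 d were 1.77 and 1.56 (SE 0.53 each, adjusted p = 0.0607 and 0.0612), and those at 6 d and 12 d were 0.38 and 0.47.

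The rise of AGL20 coincided with a change of slide. Within slide 1, 6 d and 12 d differed from 0 d by 0.38 and 0.15 with overlapping arrays. Within slide 2, the single array of 12 d was at 13.16, below all arrays of 15 d and 18 d, and the single array of 24 d was above their means by 0.56 and 0.77. The 24 d call held without any one array (adjusted p up to 0.0471) and with slide as a random block (0.0239). With slide as a fixed block the estimate was 1.37 (SE 1.11, adjusted p = 0.765), and in a fit to 0 d and 24 d alone the call was lost. The F call of AGL20 was lost without any one of 13 arrays, all but 0 d replicate 2, 6 d replicate 1 and the 3 arrays of 12 d.

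BT4 (CUST_10939), a BTB and TAZ domain scaffold protein, dipped at 18 d. Log2 signals were 8.27, 8.88 and 8.25 at 0 d, 8.52, 8.09 and 8.09 at 6 d, 8.25, 8.19 and 8.17 at 12 d, 8.64, 8.20 and 8.06 at 15 d, 7.54, 7.29 and 7.77 at 18 d and 8.04, 8.13 and 9.32 at 24 d. The 3 arrays of 18 d were the 3 lowest of all 18, within slide 2 as well as over all slides. BT4 was 1.90-fold lower at 18 d than at 0 d (log2 fold change -0.93, SE 0.30, adjusted p = 0.0477 by limma), and against 15 d the estimate was -0.77 (adjusted p = 0.478). The call was lost without any one of 14 of the 18 arrays, all but replicate 2 of 12 d and the 3 arrays of 24 d. It was also lost with slide as a fixed block (-0.88, SE 0.53, adjusted p = 0.446) or a random block (0.0778), with the replicate block (0.0695), with the normexp background (-0.79, adjusted p = 0.0506) and in a fit to 0 d and 18 d alone (0.061). With 75th percentile scaling it was -1.22 (adjusted p = 0.0267).

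A further 3 regulators had 18 d arrays that all lay below those of 0 d without passing the test. TCP14, a growth-promoting factor that binds DELLA proteins, was at 12.73, 13.07 and 12.83 at 18 d, against 13.46, 13.26 and 13.59 at 0 d (-0.56, adjusted p = 0.0544 by limma). SCL3, a GRAS protein that opposes DELLA proteins, was at 4.54, 4.58 and 5.02 at 18 d, against 5.65, 5.73 and 5.95 at 0 d (-1.06, adjusted p = 0.14), and 9 of its 18 arrays were not well above background. PKL CUST_5037, named after a chromatin remodeller that restrains embryonic traits in a GA-dependent way, was at 13.69, 13.90 and 13.34 at 18 d, against 14.33, 14.10 and 13.91 at 0 d. Its estimates were -0.31, -0.60, -0.63, -0.47 and -0.30 at 6, 12, 15, 18 and 24 d, none past the test (adjusted p = 0.0995 at 15 d).

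The other PKL probe, CUST_5859, had estimates of the opposite sign at each time, 0.20, 0.39, 0.73, 0.41 and 0.52. At 18 d against 0 d the difference between the PKL probes was -0.89, and the exact two-sided permutation test, which again could not reach 0.05, gave p = 0.2. Replicate 3 of 0 d was not well above background for CUST_5859. AT2G31730, whose description differs between the study's lists, stayed within 13.14 to 13.74 on all 18 arrays. Its arrays of 15 d, from 13.59, all lay above those of 0 d, up to 13.43. The methods' ANOVA, and their Tukey test at 15 d against 0 d, called it at an unadjusted p under 0.05. Its F by limma had an adjusted p of 0.162.

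**Figure D4:**
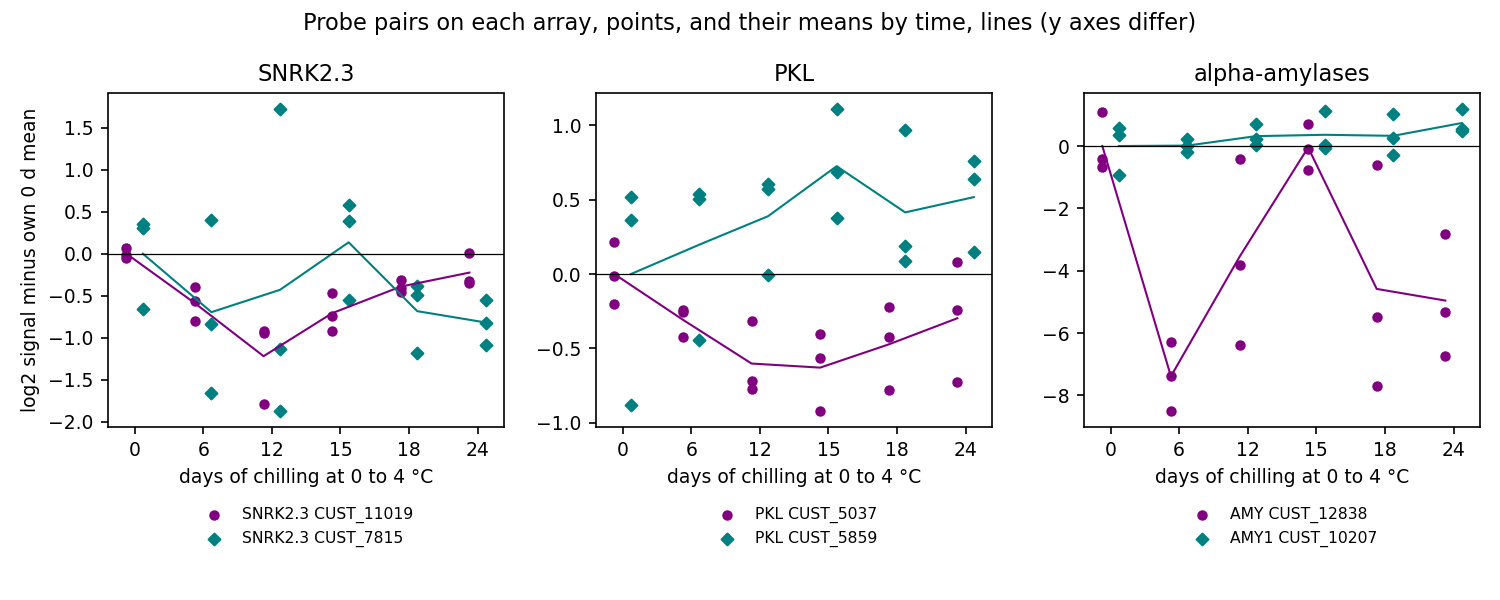
Log2 signal of the SNRK2.3, PKL and alpha-amylase probe pairs minus each probe's own mean at 0 d, on each array (points) and as the mean of each time (lines), against days of chilling. At 18 d the PKL probes stood at -0.47 and 0.41, and at 6 d AMY stood at -7.38 and AMY1 at 0.01.

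Of 6 R2R3 MYB probes, 1, AS1, rose at 18 d and at 24 d against 0 d and 0 fell, where 8.78 and 4.51% of all probes rose and 7.00 and 3.23% fell. The group medians were -0.37 at 12 d and -0.35 at 15 d, with 5 and 4 of 6 estimates negative and 0 past the test, against 0.02 over all probes at each time. At 12 d 51.2% of all probes had a positive estimate. The counts and medians include MYB13, which was not well above background on any array of 0, 12 or 15 d. With 75th percentile scaling the medians were -0.16 and -0.34, and MYB13 turned positive at 12 d (0.45). AS1 (CUST_4789), which represses meristem genes in leaf primordia, had log2 signals of 16.12, 16.03 and 16.30 at 0 d, 16.14, 16.54 and 16.38 at 6 d, 16.63, 16.09 and 16.26 at 12 d, 16.49, 16.55 and 16.34 at 15 d, 16.65, 16.68 and 16.78 at 18 d and 16.68, 16.77 and 16.70 at 24 d. All arrays of 15, 18 and 24 d lay above those of 0 d, by small amounts. The rise was 1.47-fold at 18 d (log2 fold change 0.55, SE 0.15, adjusted p = 0.025 by limma) and 1.48-fold at 24 d (0.56, adjusted p = 0.0379). With 75th percentile scaling the estimates were 0.37 at each time and with the normexp background 0.31 and 0.47, and none of these passed. With slide as a fixed block they were 0.65 and 0.62 (adjusted p = 0.296 and 0.619). The 18 d call was lost without replicate 1 or 2 of 0 d or any array of 18 d, and the 24 d call without any array of 0 d or 24 d, replicate 3 of 6 d, replicate 1 of 15 d or replicate 2 of 18 d. Within slide 2, the 18 d arrays lay above the 15 d arrays by 0.24.

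MYB31 was at 9.56, 9.63 and 9.99 at 18 d, against 10.44, 10.56 and 10.28 at 0 d. Its estimates were -0.73, -0.86, -0.70 and -0.82 at 12, 15, 18 and 24 d (adjusted p = 0.146, 0.0766, 0.101 and 0.082 by limma), and at each of these times its arrays lay below those of 0 d. MYB30, a factor of defence-related cell death and brassinosteroid response, was at 8.03, 8.68 and 8.74 at 18 d, against 7.72, 7.46 and 8.004 at 0 d (0.76, SE 0.79, adjusted p = 0.55). Replicate 2 of 12 d was at 4.37 and not well above background, where the other 17 arrays lay at 7.46 to 8.85.

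MYB13 was well above background on 1 array only. Replicate 1 of 24 d was at 9.78, and the other 17 arrays were at 2.99 to 4.96. Its 24 d estimate of 1.75 (SE 1.20, adjusted p = 0.387) rested on that array. With slide as a fixed block, where replicate 1 of 24 d was the one array of its time on slide 2, MYB13 was called in the F, at 24 d against 0 d and at 24 d against 18 d. MYB26, a factor of anther wall thickening, and MYBR1 had F adjusted p of 0.993 and 0.418.

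Of the 4 MYB-like and REVEILLE probes, AT1G70000 (CUST_9999), a MYB-like factor, rose at 18 d and 24 d. Its log2 signal was 10.89, 10.67 and 10.89 at 0 d, 11.55, 11.26 and 11.53 at 6 d, 12.25, 11.81 and 11.26 at 12 d, 11.57, 11.43 and 11.36 at 15 d, 11.56, 11.98 and 12.12 at 18 d and 11.47, 12.31 and 12.72 at 24 d. None of the 15 arrays of chilled buds overlapped those of 0 d. The estimates were 0.63, 0.96, 0.64, 1.07 and 1.36 at 6, 12, 15, 18 and 24 d (SE 0.29 each). Those at 18 d (2.10-fold, adjusted p = 0.024 by limma) and 24 d (2.56-fold, adjusted p = 0.0171) passed, and that at 12 d had an adjusted p of 0.0768.

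Within slides the order of AT1G70000 differed. On slide 1, 6 d and 12 d lay above 0 d by 0.63 and 1.21 without overlap. On slide 2, 18 d was 0.43 above 15 d with overlapping arrays, and the single array of 24 d lay below every array of 18 d, by 0.42 from their mean, and overlapped those of 15 d. With slide as a fixed block the estimate at 18 d was 1.84 (SE 0.33, adjusted p = 0.0443), 12 d against 0 d then passed as well, and 24 d was at 1.42 (adjusted p = 0.307). The 18 d call was lost without replicate 1 or 2 of 0 d or replicate 2 or 3 of 18 d, and the 24 d call without replicate 2 or 3 of 24 d. The clock-related REVEILLE probes did not pass in any comparison. AT3G09600 (REVEILLE 8) had its largest estimate at 24 d against 0 d (0.79, adjusted p = 0.233), and AT5G52660 (REVEILLE 6) stayed within 13.24 to 13.91 on all arrays. AT5G47390, a further MYB-like factor, was at -0.54 at 15 d (adjusted p = 0.233).

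**Figure D5:**
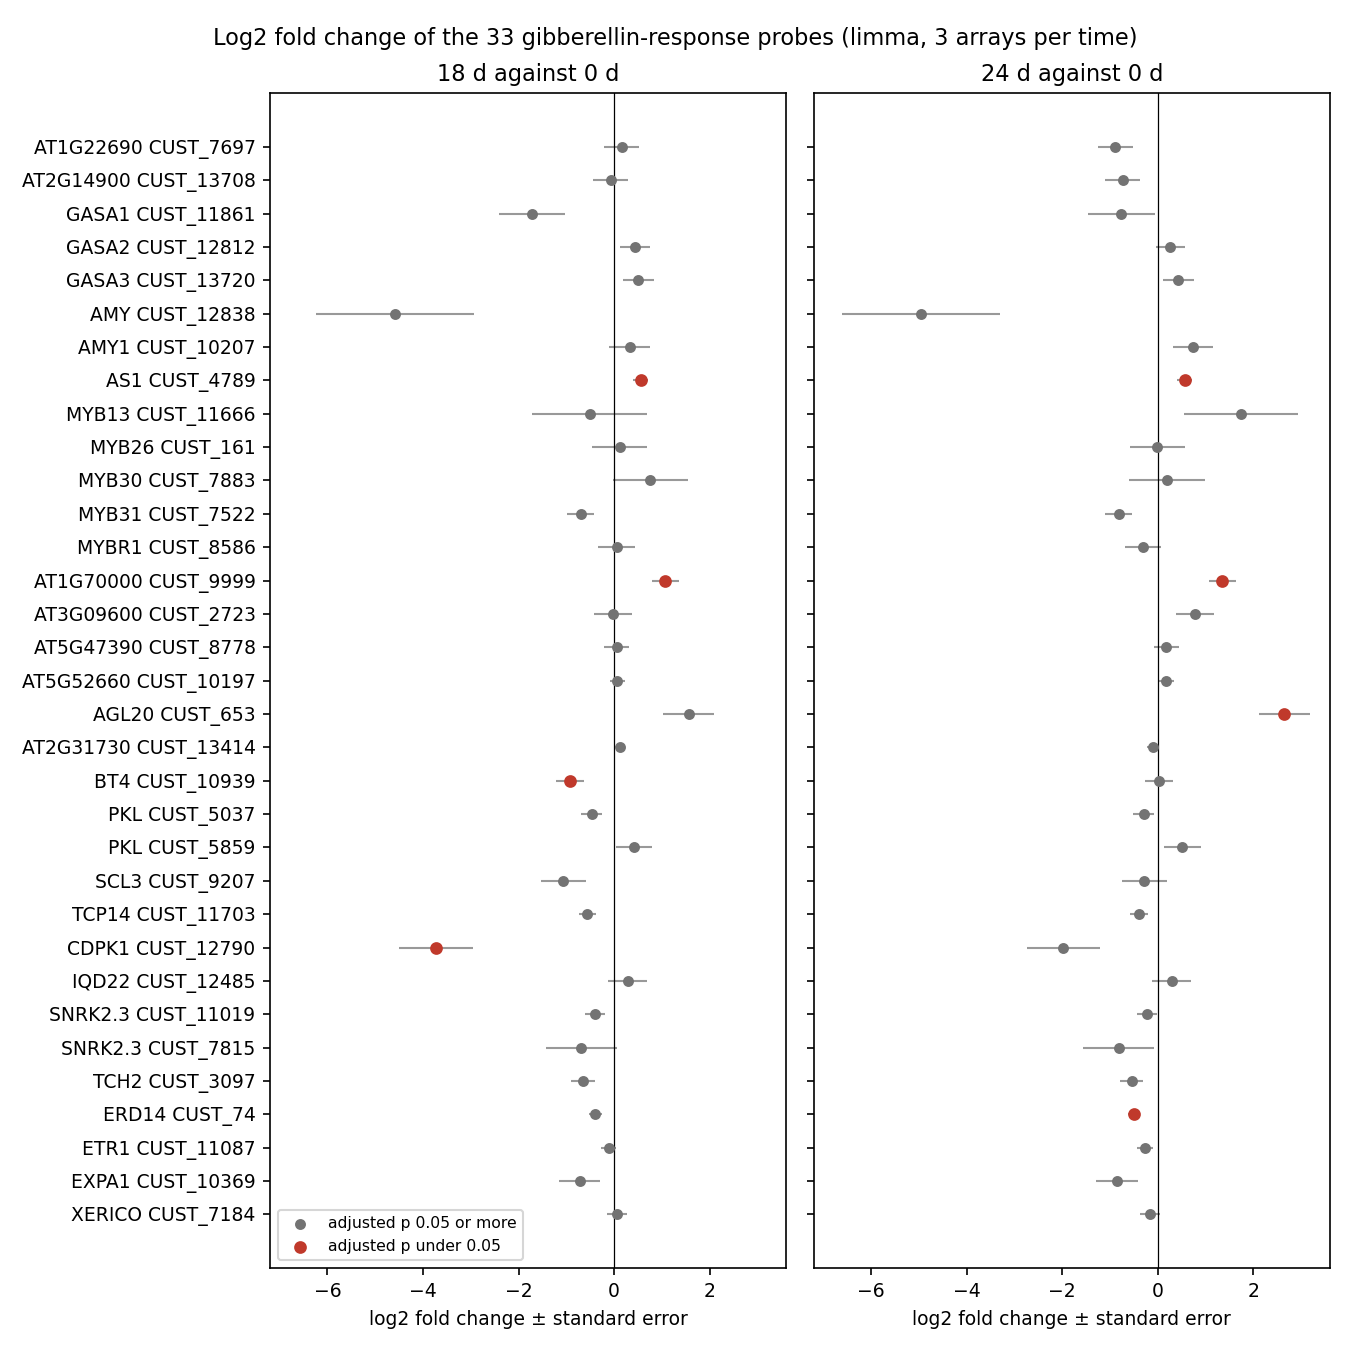
Log2 fold change with its standard error (limma, x axis) of each of the 33 probes at 18 d against 0 d (left) and at 24 d against 0 d (right), with those past the threshold in red. CDPK1 and BT4 fell and AS1 and AT1G70000 rose at 18 d, and AGL20, AS1 and AT1G70000 rose and ERD14 fell at 24 d.

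The 2 alpha-amylase probes, named after the enzymes that GA induces in the cereal aleurone to break down starch, differed widely in size of change. AMY (CUST_12838) had the log2 signals 14.39, 12.89 and 12.62 at 0 d, 5.94, 7.02 and 4.79 at 6 d, 6.90, 9.47 and 12.87 at 12 d, 12.53, 14.01 and 13.21 at 15 d, 5.61, 12.70 and 7.83 at 18 d and 6.57, 7.98 and 10.48 at 24 d. Every array of 0 d and 15 d was at 12.53 or above and every array of 6 d at 7.02 or below, while 12 d and 18 d each held both low and high arrays. The high array of 12 d, at 12.87, was the only array of that time on slide 2. The 18 d arrays were all on slide 2. Replicate 3 of 6 d was not well above background.

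AMY did not pass the test over all probes. At 6 d against 0 d the log2 fold change was -7.38 (SE 1.65, adjusted p = 0.0873 by limma), on arrays of the same slide, with 2 of the 3 arrays of 6 d well above background. The estimates were -3.55, -0.05, -4.58 and -4.96 at 12, 15, 18 and 24 d (adjusted p = 0.224, 0.991, 0.0737 and 0.0771). The F had an adjusted p of 0.0503, which ran from 0.0312 to 0.108 when single arrays were left out, and was 0.0345 with the normexp background, 0.0458 without dim probes and 0.0499 with spots marked as outliers kept. It was 0.0849 and 0.0668 with slide as a fixed and a random block, 0.0622 with 75th percentile scaling and 0.0618 with the replicate block. Its SD over the 3 arrays was 0.95 before chilling, and 1.11, 2.99, 0.74, 3.63 and 1.98 after 6, 12, 15, 18 and 24 d. AMY1 (CUST_10207) stayed within 11.91 to 14.05 on all arrays, with estimates from 0.01 to 0.74 and an F adjusted p of 0.696.

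None of the 5 GASA probes among the 33 passed in any comparison (adjusted p 0.108 or above by limma). GASA genes encode small cysteine-rich peptides that are induced by GA in many plants. GASA1 had the largest estimate, -1.72 at 18 d (SE 0.70, adjusted p = 0.108). Arrays read 12.70, 14.88 and 14.04 at 18 d, against 16.16, 16.18 and 14.44 at 0 d, and 1 array of each time overlapped the other. AT1G22690 was at 11.73, 12.51 and 12.88 at 24 d, below all arrays of 0 d, at 13.31, 12.89 and 13.59 (-0.89, adjusted p = 0.138). At 6 d it was above them, at 14.04, 14.02 and 13.84 (0.71, adjusted p = 0.364). AT2G14900, GASA2 and GASA3 had estimates of -0.73, 0.27 and 0.43 at 24 d against 0 d. The group median was 0.16 at 18 d and -0.73 at 24 d, against 0.05 and 0.03 over all probes.

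Of the 4 stress, ethylene, abscisic acid and cell wall probes, ERD14 (CUST_74), a dehydrin induced by drought and cold, fell at 24 d. The array values were 18.67, 18.61 and 18.90 at 0 d, 18.61, 18.56 and 18.51 at 6 d, 18.46, 18.29 and 18.46 at 12 d, 18.69, 18.54 and 18.51 at 15 d, 18.34, 18.39 and 18.27 at 18 d and 18.49, 18.14 and 18.08 at 24 d. All arrays of 12, 18 and 24 d lay below those of 0 d, and replicate 1 of 24 d, on slide 2, was above the 18 d arrays. It was 1.41-fold lower at 24 d than at 0 d (log2 fold change -0.49, SE 0.13, adjusted p = 0.0371 by limma), and at 18 d the estimate was -0.39 (adjusted p = 0.0534). The 24 d call was lost without replicate 1 or 3 of 0 d, replicate 2 of 18 d or replicate 2 or 3 of 24 d. With the normexp background the estimate was -0.25 (adjusted p = 0.33), and with slide as a fixed block it was -0.33 (adjusted p = 0.75). With 75th percentile scaling it was -0.85 (adjusted p = 0.0139), and the 18 d estimate of -0.79 then passed as well (adjusted p = 0.00826).

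ETR1, an ethylene receptor, stayed within 13.34 to 13.99 on all arrays. EXPA1, an expansin that loosens cell walls, was at 4.62, 4.19 and 4.50 at 18 d, against 5.12, 5.32 and 5.04 at 0 d, where 2 arrays of each time were not well above background (-0.72, adjusted p = 0.276). XERICO, a RING-type ubiquitin ligase that raises abscisic acid, was not well above background on any array.

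Counted over all 33 probes, 13 had 18 d arrays that did not overlap those of 0 d, 4 above (AGL20, AS1, AT1G70000 and MYB30) and 9 below. Over all probes 38.1% did not overlap, 20.7% above and 17.4% below. At 24 d against 0 d, 4 lay above and 6 below, and over all probes 29.8% did not overlap, 17.0% above and 12.8% below. At 18 d against 15 d, on 1 slide, 4 of the 33 lay above and 5 below, and over all probes 21.0% did not overlap, 12.2% above and 8.84% below.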

How the data were processed

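Buds of 6 chilling times were hybridized to 18 custom Agilent arrays, 3 per time. The scanner files deposited by the authors hold intensity values that Feature Extraction 10.5.1.1 had background-subtracted and detrended within each array, per the file headers, with no scaling between arrays. The value table deposited by the authors holds log2 values, quantile-normalized per the methods, for 14949 probes. It was used as an alternative (correlation with the values computed here at least 0.999851). Its median was 10.83 on the log2 scale.

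The processed intensity was taken to log2, flagged spots were left out (4 to 233 probes per array, none of them among the 33), the spots of each of 14957 probes were averaged and arrays were quantile-normalized. The 75th percentile of the intensity was 10515 to 16991 per array. For arrays the number per time, 3, limits the precision. All fits used limma 3.58.1 and statmod 1.5.0 under R 4.3.3, with 1 mean per time over all 18 arrays and Benjamini-Hochberg adjustment over all probes at 0.05. The code was tested on simulated data. A level is compared only with other levels of the same probe.

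The 33 probes, role groups and lists were chosen with earlier results of these data known. Values on every array are given for probes past the threshold in any comparison and for AMY, the alpha-amylase with the larger range, and values of the times compared for probes whose 18 d and 0 d arrays did not overlap. Others are given by role group, with examples of the largest range. Probes of 1 symbol were compared by exact permutation. The alternatives were 75th percentile scaling, the value table, the normexp background (offset 50), leaving out dim probes, a fixed or a random slide block, the replicate number as a block, a trended and robust prior, fits to the compared times alone, the methods' ANOVA and Tukey test, and leaving out each array. Fits to the arrays of 1 slide were added after seeing the data. Genome positions and probe sequences are not used here.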

Additional observations from a re-analysis of the deposited data

How the results depend on the processing

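Counts are of the 33 probes past the threshold, and no called value reversed direction, in the comparison that called it, under any alternative run. Apart from the methods' tests, shares of all probes under the same alternatives are not given in this section. A shift in a count therefore cannot be read as particular to the 33. With 75th percentile scaling, which moved the median log2 fold change of all probes to 0.16 at 12 d (main 0.02) and -0.06 at 18 d (main 0.05) against 0 d, 15 d against 0 d gave 1. The normexp background gave 2 at 12 d and 2 at 15 d against 0 d. Slide as a fixed block gave 1 in the F, 2 at 12 d, 1 at 18 d and 1 at 24 d against 0 d, 1 at 24 d against 18 d and 0 in the combined comparison. Slide as a random block (correlation 0.05) gave 1, 2 and 0 in the F, at 24 d against 0 d and in the combined comparison. The replicate block gave 1 in the F, 1 at 15 d against 0 d and 0 combined. The replicate numbers only name the samples: over 45 pairs of arrays with the same number the correlation of deviations was -0.23 to 0.27, and 6 of 18 arrays correlated best with their own number. Fits to the compared times alone gave 0 at 12 d and 0 at 24 d against 0 d, 1 at 18 d against 15 d and 0 combined. Fits to 1 slide, chosen after seeing the data, gave 0 at 12 d against 0 d and 1 at 18 d against 15 d. For 18 d against 15 d this was the same result as that of the fit to the compared times alone, not a further one. The methods' ANOVA without adjustment gave 9 over all times (26.8% of all probes). Their Tukey test gave 1 at 6 d, 2 at 12 d and 2 at 15 d against 0 d (3.73, 7.14 and 9.01%). It gave 4 at 18 d and 4 at 24 d against 0 d (13.6 and 9.45%). At 18 d against 15 d it gave 1 (1.68%), and at 24 d against 18 d 0 (2.77%). After Benjamini-Hochberg these tests gave 1 over all times and 0 in each pair of times. The value table, the filter on dim probes (29 probes left) and the trended prior kept every count within 1.5 times. The causes of these shifts were not tested.

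Leaving out 1 array at a time gave 0 to 5 in the F, 0 at 6 d throughout, 1 to 2 at 12 d, 0 to 1 at 15 d, 1 to 7 at 18 d and 1 to 4 at 24 d against 0 d, 0 throughout at 18 d against 15 d and at 24 d against 18 d and 0 to 3 combined. At 18 d the lowest came without replicate 3 of 18 d and the highest without replicate 3 of 24 d, and at 24 d the lowest came without replicate 2 or 3 of 24 d. The shares of all probes in these fits are not given here either, so the same limit holds. The difference between probes ran from 0.000717 to 0.613 for SNRK2.3 and from -1.18 to -0.548 for PKL. With 3 arrays per time, a dim probe such as XERICO, MYB13 or EXPA1 shows changes only above the background signal.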
